A study of Mus musculus with 12 samples.

Results

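GSCLC_3 is 1 of 4 mouse lines of germline stem cell-like cells (GSCLCs), and its 2 libraries were set against the 6 libraries of the lines GSCLC_1, GSCLC_2 and GSCLC_4. The libraries were chosen by line, and the genes were the 11453 of 26219 that reached at least 5 RPM, the authors' reads scaled to a common library total, in at least 2 of these 8 libraries. The 4 libraries of the germline stem cell (GSC) lines GSC_1 and GSC_2 complete the 12 libraries of the series and serve as a reference only. GSCLC_3 and GSCLC_2 were derived from reconstituted testes that spent 2 weeks at 37°C followed by 1 week at 34°C. GSCLC_1 and GSCLC_4 came from reconstituted testes held at 34°C for 3 weeks. The GSC lines came from separate testes at postnatal day 7 (P7). The 6 lines, the GSC lines included, have the background C57BL/6 x 129/SvJcl, carry the AcrAct_EGFP reporter and grew in StemPro-34 medium with GDNF, bFGF, LIF, EGF and a low share of fetal bovine serum. Each line was sampled as 2 culture replicates, so GSCLC_3 stands for a single derivation, and its derivation and its culture history cannot be told apart. It shares its temperature schedule with GSCLC_2.

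GSCs are spermatogonial stem cells that keep dividing in culture. GDNF acts on them through the coreceptor GFRA1 and the kinase RET, and FGF2 (bFGF) through FGF receptors and the ERK kinases. Both signals sustain transcription factors such as ETV5 and BCL6B that keep the cells undifferentiated, while retinoic acid drives them towards differentiation and meiosis. Cultured mouse stem cells, embryonic stem cells above all, are known to gain whole chromosomes on prolonged growth, and chromosome 8 is among those gained most often. DNA was not measured here, so copy number was not tested.

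Transcript levels were measured by SC3-seq, which amplifies cDNA from 1 ng of total RNA and sequences the 3′ ends of transcripts. The steps between low RPM values implied 3537311 to 3709927 reads in GSCLC_3, 3031705 to 4230229 in the other GSCLC lines and 3067894 to 4644183 in the GSC lines. A floor of 3 implied reads corresponds to 0.809 to 0.848 RPM in GSCLC_3 and covers counting error only. The germ cell genes Dazl and Ddx4 were high throughout. Dazl, an RNA-binding protein, stood at 1452 and 1312 RPM in GSCLC_3 and at 1324 to 1559 RPM in the other lines, and Ddx4, an RNA helicase, at 566 and 538 RPM in GSCLC_3 and at 464 to 558 RPM in the other lines. Among defining markers of other cell types, Amh (Sertoli cells) and Hsd3b1 (Leydig cells) were at 0 in all 8 GSCLC libraries, and Cyp11a1 (Leydig cells), Csf1r (macrophages) and Cdh5 (endothelium) were at 0 in GSCLC_3. Ptprc (blood cells) stood at 4.81 and 1.89 RPM in GSCLC_3 and at 0.285 to 3.91 RPM in the other lines, and Pecam1 (endothelium) at 5.65 and 1.89 RPM in GSCLC_3 and at 1.14 to 3.55 RPM in the other lines, so replicate 1 of GSCLC_3 was above the 6 other libraries for both. The list of 21 macrophage, blood and endothelial genes summed to 77.7 and 58.5 RPM in GSCLC_3 and to 51.1 to 70.4 RPM in the other lines, and the part of such cells in the results was not tested. The fibroblast gene Col1a1 was present, at 58 and 86 RPM in GSCLC_3 and at 48.1 to 126 RPM in the other lines. In such bulk samples, fewer cells of a type and less RNA per cell cannot be told apart.

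GSCLC_3 differed from the mean of the other 3 lines at 859 of 11453 genes (7.5%), of which 286 were higher (2.5%) and 573 lower (5.0%). The test was limma with a mean-variance trend on log2(RPM + 1), with Benjamini-Hochberg adjustment over all tested genes and a threshold of 0.05. Differences below are on this log2 scale and are given with their SE. Of the 859 genes, 270 differed by more than 2-fold, 57 upwards and 213 downwards. Both GSCLC_3 libraries lay outside the range of the 6 other libraries at 258 of the higher genes (2.25% of all tested) and at 486 of the lower genes (4.24%). The median difference over all tested genes was -0.09. Quantile normalization moved it to -0.01, and 330 genes were then higher and 320 lower, so that 50.8% of the calls were higher, against 33.3% without it. The error in this fit is the spread between culture replicates, and its p-values do not speak for other lines. When each line was reduced to its mean and compared as 1 line against 3, 12 genes passed (0.105%), 2 higher (0.0175%) and 10 lower (0.0873%), and 1125 had an unadjusted p under 0.05.

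**Figure D1:**
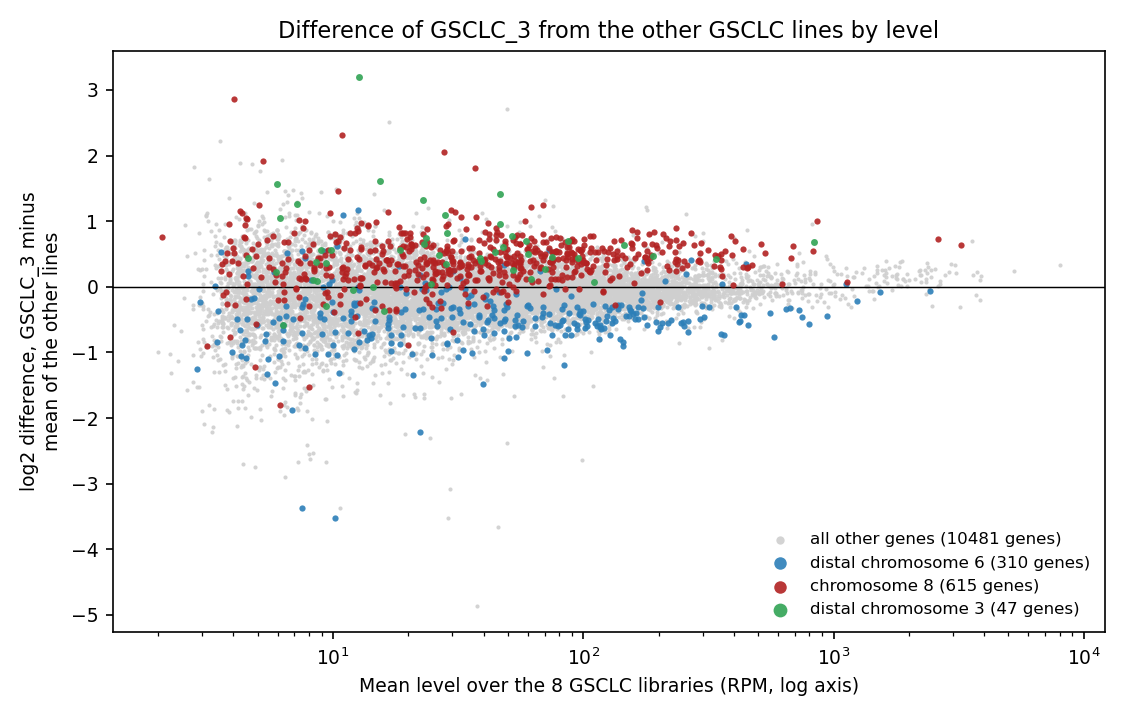
Each point is 1 of the 11453 tested genes. The horizontal axis gives the mean level over the 8 GSCLC libraries in RPM (log axis) and the vertical axis the log2 difference of GSCLC_3 from the mean of the other lines. Genes of chromosome 8 form a band above 0 with a median of 0.40, and those of chromosome 6 from 80 Mb on a band below 0 with a median of -0.48.

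Genes of chromosome 8 were raised along the whole chromosome in GSCLC_3. Of 615 tested genes, 148 were higher (24.07%) and 4 lower, and 88.78% had a difference above 0. The median difference was 0.40, against -0.11 over all other tested genes, those without a matched position included. The distribution as a whole was displaced, from 0.20 at the 25th to 0.60 at the 75th percentile. The corresponding values over all other tested genes were -0.33 and 0.09. Chromosome 8 held 148 of the 286 rises, and 138 lay elsewhere or had no matched position. The 17 chromosomes other than 3, 6 and 8 had medians from -0.16 to -0.06. The count of rises on chromosome 8 depended on the libraries in the fit. It was 51 without replicate 1 and 51 without replicate 2 of GSCLC_3, 101 to 168 without any single other GSCLC library, 43 without a variance trend, 80 without a filter on low values and 1 on line means.

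The displacement was present in each GSCLC_3 library and against each other line. The chromosome's median was 0.42 in replicate 1 and 0.39 in replicate 2. It was 0.42 against GSCLC_1, 0.42 against GSCLC_2 and 0.35 against GSCLC_4. Relative to the GSC lines the median was 0.41 in GSCLC_3, and -0.01, -0.01 and 0.06 in GSCLC_1, GSCLC_2 and GSCLC_4. Transcripts of the 615 genes summed to 65870 and 64680 RPM in GSCLC_3. They summed to between 46780 and 47540 RPM in the other GSCLC lines and to between 48810 and 49570 RPM in the GSC lines. GSCLC_3 thus stood above all 10 other libraries, at 1.385 times the mean of the other GSCLC lines, whose SD over the 3 lines was 363.5 RPM. With 1 line against 3, an exact permutation test over lines cannot give a p below 0.25.

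The chromosome was displaced from end to end. Cut into 7 segments of 20 Mb, it had segment medians between 0.32 and 0.46, and between 14.75% and 34.62% of the genes of a segment were called higher. The 124 segments outside chromosome 8, distal chromosome 6 and distal chromosome 3 had medians from -0.31 to 0.04. The number of calls followed the level of the genes. At a mean of 5 to 20 RPM, 8 of 160 genes were called higher (5.0%), with a median difference of 0.32. Between 20 and 100 RPM, 62 of 292 were called (21.23%), with a median of 0.39, and above 100 RPM 78 of 138 (56.52%), with a median of 0.48. The share called therefore varied more between these classes than the medians did.

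**Figure D2:**
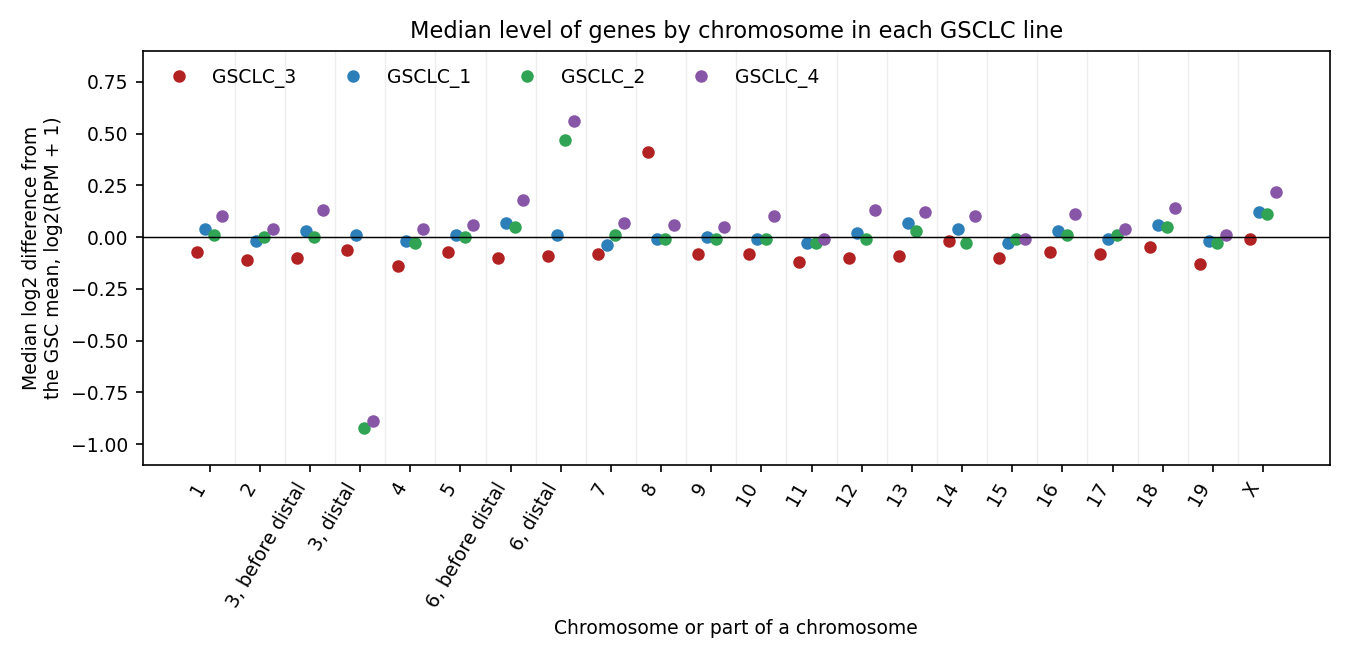
The horizontal axis lists the chromosomes, with chromosomes 3 and 6 divided, and the vertical axis gives the median log2 difference of their genes from the GSC mean. Points stand for GSCLC_3, GSCLC_1, GSCLC_2 and GSCLC_4. On chromosome 8 GSCLC_3 stands alone at 0.41, and on distal chromosomes 3 and 6 it lies with GSCLC_1 near 0 while GSCLC_2 and GSCLC_4 are displaced.

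Abundant genes of chromosome 8 show the shift gene by gene. Rpl13, a protein of the large ribosomal subunit, stood at 1309 and 1422 RPM in GSCLC_3, against a lowest, median and highest value of 473, 692 and 882 RPM in the other 6 libraries (1.01 ± 0.13, adjusted p = 0.00042). Rpl13 shares up to 159 bases of its 3′ end with other genes, among them Gm12918 and Gm15710, so its value is uncertain. In Rpl13, and in Cox4i1, a subunit of cytochrome c oxidase (0.55 ± 0.10, adjusted p = 0.00443), the groups did not overlap. The mitochondrial import receptor Tomm20 (0.62), the lysosomal membrane protein Lamp1 (0.44), the cochaperone Dnaja2 (0.51) and the polyadenylation factor Nudt21 (0.65) were also called higher. Mt1 and Mt2, abundant metallothioneins that bind metal ions, were not called. Mt1 stood at 664 and 588 RPM in GSCLC_3 and at 434 to 796 RPM in the other lines, and Mt2 at 1471 and 889.8 RPM in GSCLC_3 and at 746 to 1394 RPM in the other lines, so both overlapped. The 3′ ends of Mt2 and Lamp1 overlap Gm45774 and Grtp1 on the opposite strand, so both values are uncertain.

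Within chromosome 8, 16 called genes exceeded a difference of 1. Nrp1, a coreceptor for semaphorins and VEGF, stood at 38.5 and 18.3 RPM in GSCLC_3, against 2.51, 5.01 and 8.04 RPM in the other lines (2.31 ± 0.38, adjusted p = 0.0026). Dusp4, a phosphatase that switches off ERK, stood at 89.3 and 36.1 RPM in GSCLC_3, against 6.52, 10.1 and 35.1 RPM (2.06 ± 0.30, adjusted p = 0.00105). The lower GSCLC_3 value of Dusp4 lies just above the higher library of GSCLC_1, at 35.1 and 27.2 RPM, and against GSCLC_1 alone Dusp4 was not called. Got1l1, a relative of aspartate aminotransferase, stood at 93.6 and 66.9 RPM in GSCLC_3, against 15, 22.4 and 27.8 RPM (1.81 ± 0.20, adjusted p = 0.000146). It was called against each other line alone and also in the comparison of line means. Zfp358, a zinc finger gene, rose by 1.46 ± 0.32, and Vps36, a subunit of the ESCRT-II sorting complex, by 1.25 ± 0.18. Zfp358 was not called against GSCLC_1 or GSCLC_4 alone. The call of Nrp1 was lost without replicate 1 of GSCLC_3 (adjusted p = 0.0601), and that of Zfp358 without either replicate of GSCLC_3 (adjusted p up to 0.0998). The 4 genes of chromosome 8 that fell were Rab20, Sall1, Ccdc113 and 4732415M23Rik, named here after their values were seen.

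Further genes of chromosome 8 belong to pathways that matter in these cultures. Fgfr1, a receptor for FGF2, stood at 139.9 and 118 RPM in GSCLC_3, against 81.3, 85.1 and 93.7 RPM in the other lines (0.57 ± 0.13, adjusted p = 0.0155). Itgb1, the beta subunit of many laminin and fibronectin receptors, stood at 235 and 232 RPM in GSCLC_3, against 87.7, 149 and 172 RPM (0.75 ± 0.18, adjusted p = 0.0227). Gsr, glutathione reductase, stood at 159 and 151 RPM in GSCLC_3, against 80.2, 90.1 and 103 RPM (0.78 ± 0.12, adjusted p = 0.00178). In all 3 genes the GSCLC_3 libraries were above the 6 others. The peroxidase Prdx2 (0.40), the chromatin protein Hmgb2 (0.37), the synaptonemal complex gene Syce2 (0.47) and the cholesterol synthesis enzyme Msmo1 (listed as Sc4mol, 0.81) were called higher as well, beside a chromosome median of 0.40. Leaving out a library ended the call for Fgfr1 without replicate 1 of GSCLC_3 (adjusted p = 0.148), for Sc4mol without replicate 1 of GSCLC_3 (adjusted p = 0.127) and for Itgb1 without either replicate of GSCLC_3, either replicate of GSCLC_1 or replicate 2 of GSCLC_2 (adjusted p up to 0.135). It was lost for Prdx2 without either replicate of GSCLC_3, either replicate of GSCLC_1 or replicate 1 of GSCLC_2 (adjusted p up to 0.151), for Hmgb2 without either replicate of GSCLC_3, either replicate of GSCLC_1 or either replicate of GSCLC_2 (adjusted p up to 0.189) and for Syce2 without either replicate of GSCLC_3, replicate 1 of GSCLC_1 or replicate 1 of GSCLC_2 (adjusted p up to 0.212). Fgfr1 was not called against GSCLC_1, GSCLC_2 or GSCLC_4 alone. Itgb1, Prdx2 and Syce2 were not called against GSCLC_1 or GSCLC_2 alone, nor Hmgb2 and Sc4mol against GSCLC_1 or GSCLC_4 alone. The 3′ end of Prdx2 overlaps Junb on the opposite strand over 125 bases, and strand use in counting is not given, so its value is uncertain.

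Distal chromosome 6 held the densest block of falls, and there GSCLC_3 was close to the GSC lines. From 80 Mb on, 97 of 310 tested genes were lower in GSCLC_3 (31.29%) and 3 higher, with a median of -0.48. The median was -0.58 against GSCLC_2 and -0.70 against GSCLC_4, but -0.11 against GSCLC_1. Relative to the GSC lines it was -0.09 in GSCLC_3, and 0.01, 0.47 and 0.56 in GSCLC_1, GSCLC_2 and GSCLC_4. The genes before 80 Mb had a median of -0.12, near that of all genes. Transcripts of the 310 genes summed to 27950 and 27880 RPM in GSCLC_3, to 29310 and 29780 RPM in GSCLC_1, and to between 38570 and 40120 RPM in GSCLC_2 and GSCLC_4. The boundary was placed after the values had been seen. Of the 573 falls, 476 lay outside this block or had no matched position. The 97 falls became 51 without replicate 1 of GSCLC_3, 29 without replicate 2 and 67 to 110 without any single other GSCLC library, and with GSCLC_4 left out of the other lines 38.

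Distal chromosome 3 showed the reverse arrangement. From 140 Mb on, 16 of 47 tested genes were higher in GSCLC_3 (34.04%) and 0 were lower, with a median of 0.48. The median was 0.81 against GSCLC_2, 0.81 against GSCLC_4 and -0.05 against GSCLC_1. Relative to the GSC lines it was -0.06 in GSCLC_3, and 0.01, -0.92 and -0.89 in GSCLC_1, GSCLC_2 and GSCLC_4. Pigk, part of the enzyme that attaches GPI anchors, stood at 38.7 and 39.4 RPM in GSCLC_3, against 7.59, 12.2 and 34.5 RPM in the other lines (1.32 ± 0.22, adjusted p = 0.00264). Its difference was 1.61 from GSCLC_2, 2.01 from GSCLC_4 and 0.34 from GSCLC_1, and against GSCLC_1 alone it was not called. This boundary, too, was placed after the values had been seen. The 16 rises became 9 without replicate 1 of GSCLC_3, 8 without replicate 2 and 10 to 19 without any single other GSCLC library.

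Outside chromosome 8, the largest rise among the named genes was that of Grb10, an imprinted gene whose product dampens insulin and IGF signalling. Grb10 (identifier 14783, chromosome 11) stood at 138 and 131 RPM in GSCLC_3, against 9.99, 17.8 and 35.6 RPM in the other lines and 9.6 to 12.1 RPM in the GSC lines (2.72 ± 0.21, adjusted p = 3.14e-06). The groups did not overlap, and the gene was called under all 23 alternative settings, the comparison of line means included. Sohlh1 (identifier 227631, chromosome 2), a transcription factor of early differentiating spermatogonia, stood at 31.1 and 51.5 RPM in GSCLC_3, against 1.25, 7.04 and 17.1 RPM in the other lines (2.52 ± 0.42, adjusted p = 0.00264). With 27.6 to 65.8 RPM in the GSC lines, GSCLC_3 lay within their range and the other GSCLC lines below it. The call of Sohlh1 was lost without replicate 2 of GSCLC_3 (adjusted p = 0.0693) and against GSCLC_1 alone.

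Other rises outside the chromosome blocks were smaller. Lgals1, which encodes the sugar-binding protein galectin-1, stood at 314 and 284 RPM in GSCLC_3, against 53.1, 138 and 201 RPM in the other lines and 343 to 435 RPM in the GSC lines (1.22 ± 0.23, adjusted p = 0.00624). Tmem132e, a transmembrane protein, stood at 163 and 86.8 RPM in GSCLC_3, against 17.3, 52 and 86.5 RPM (1.32 ± 0.27, adjusted p = 0.00896), and its lower GSCLC_3 value almost touched a library of GSCLC_1. The uncharacterised LOC100861653 stood at 17 and 24.5 RPM in GSCLC_3, against 5.01, 6.93 and 8.27 RPM (1.49 ± 0.28, adjusted p = 0.00649). In all 3 genes GSCLC_3 was above the other 6 libraries. Lgals1 was not called against GSCLC_2 or GSCLC_4 alone, nor Tmem132e against GSCLC_1 alone. Among these, the call was lost for Lgals1 without either replicate of GSCLC_3 (adjusted p up to 0.0694), for Tmem132e without replicate 1 of GSCLC_3 (adjusted p = 0.154) and for LOC100861653 without replicate 2 of GSCLC_3 (adjusted p = 0.0989).

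**Figure D3:**
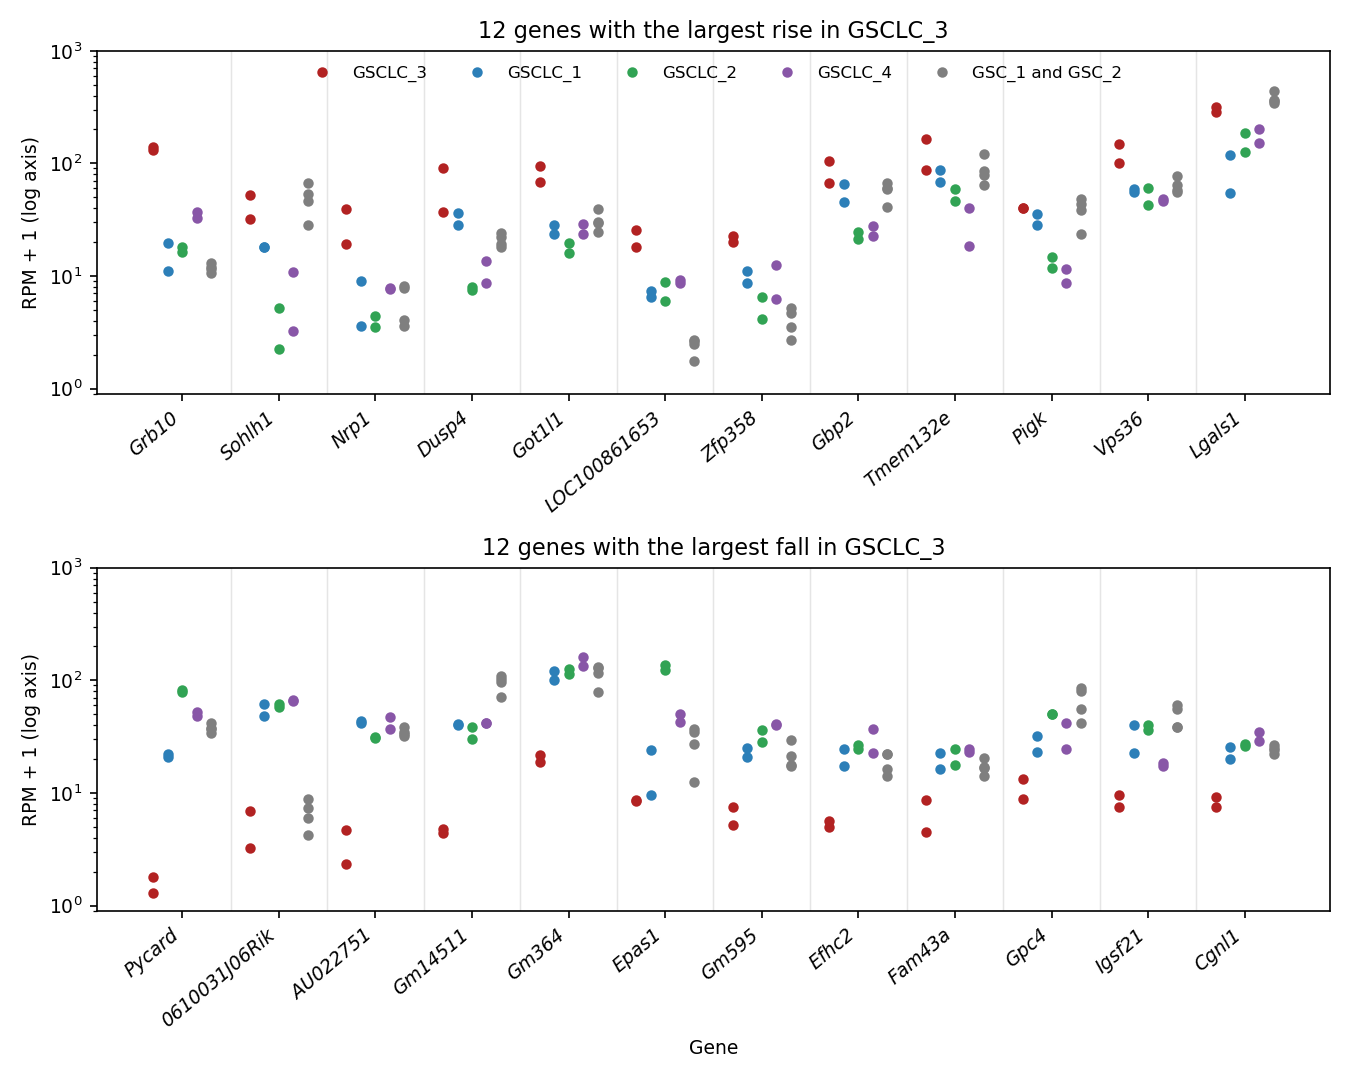
Levels are shown as RPM + 1 on a log axis, with 1 point per library and the lines GSCLC_3, GSCLC_1, GSCLC_2, GSCLC_4 and GSC told apart by colour. The 12 named genes that rose most in GSCLC_3 and the 12 that fell most are shown. Pycard stands below 1 RPM in both GSCLC_3 libraries and at 20.0 RPM or more in the 6 other GSCLC libraries.

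The deepest fall was that of Pycard, the adaptor protein ASC that joins inflammasome sensors to caspase-1. Pycard (identifier 66824, chromosome 7) stood at 0.283 and 0.809 RPM in GSCLC_3, against 20.0, 49.2 and 81.5 RPM in the other lines and at 33 to 40.7 RPM in the GSC lines (-4.86 ± 0.21, adjusted p = 7.38e-09). The GSCLC_3 values are at or under the floor of 3 implied reads. The size of the fall therefore rests on the pseudocount, and it was -5.43 with 0.5 and -3.14 with 5 in place of 1. Pycard was called under all 23 alternative settings.

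Gxylt2 and Tmem40 on distal chromosome 6, named because they passed on line means, were also at or under that floor. Gxylt2, a xylosyltransferase that extends sugars on Notch, stood at 0.565 and 0 RPM in GSCLC_3, against 10.9, 12.9 and 16.8 RPM in the other lines and at 9.45 to 12.6 RPM in the GSC lines. Tmem40 was listed at 0 in both GSCLC_3 libraries, against 5.71, 8.93 and 18.1 RPM in the other lines and 0 to 0.985 RPM in the GSC lines. Glmp, a lysosomal membrane protein listed as 0610031J06Rik, stood at 2.26 and 5.93 RPM in GSCLC_3, against 47.4, 60.6 and 66.3 RPM in the other lines (-3.66 ± 0.24, adjusted p = 5.08e-07). Its 3.26 to 7.91 RPM in the GSC lines overlapped GSCLC_3. The 3′ end of 0610031J06Rik is shared with Tmem79 on the opposite strand over 300 bases, so its counts are uncertain.

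Epas1, the hypoxia-inducible factor HIF-2alpha, stood at 7.63 and 7.55 RPM in GSCLC_3, against 8.51, 45.2 and 135 RPM in the other lines (-2.39 ± 0.27, adjusted p = 0.000168). GSCLC_1 had 23.1 and 8.51 RPM, and against that line alone Epas1 was not called. Igsf21, an immunoglobulin-family protein of synapses, fell by 1.69 ± 0.24 (adjusted p = 0.000927). Cgnl1, a protein of cell junctions, fell by 1.69 ± 0.21 (adjusted p = 0.00042), and Fam43a by 1.77 ± 0.28 (adjusted p = 0.00178). In the last 3 genes GSCLC_3 was below all 6 other GSCLC libraries and below the 4 GSC libraries.

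The X chromosome held 43 falls (9.227%, beside 5.0% over all tested genes) and 4 rises among 466 tested genes, and 6 of the 12 named falls. Its median was -0.16, beside -0.09 over all tested genes. Chromosome 6 before 80 Mb had a like share of falls, 9.589%. Against GSCLC_1 alone, 16 genes of the X chromosome were called lower. The 43 falls became 27 without replicate 1 of GSCLC_3, 18 without replicate 2 and 28 to 48 without any single other GSCLC library. Ezhip, a germline inhibitor of Polycomb repressive complex 2 listed as AU022751, stood at 3.68 and 1.35 RPM in GSCLC_3, against 30.0, 38 and 46.3 RPM in the other lines and at 30.8 to 37.8 RPM in the GSC lines (-3.52 ± 0.25, adjusted p = 1.34e-06). Gm364 stood at 20.6 and 17.8 RPM in GSCLC_3, against 100.0, 123 and 161 RPM (-2.63 ± 0.14, adjusted p = 7.51e-08). Fsip2l, listed as Gm595, stood at 4.24 and 6.47 RPM in GSCLC_3, against 19.9, 31.1 and 40.1 RPM (-2.31 ± 0.22, adjusted p = 3.11e-05). In these 3 genes the GSC libraries, too, were above GSCLC_3. Efhc2, which encodes an EF-hand protein, stood at 3.96 and 4.58 RPM in GSCLC_3, against 16.3, 23.6 and 35.8 RPM (-2.24 ± 0.25, adjusted p = 0.000155). AU022751, Gm364, Gm595 and Efhc2 were called under all 23 alternative settings, line means among them. Gpc4, a heparan sulfate proteoglycan that takes part in FGF and Wnt signalling, stood at 7.92 and 12.4 RPM in GSCLC_3, against 22.2, 35.8 and 49.4 RPM (-1.69 ± 0.24, adjusted p = 0.000927).

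In a cluster of ferritin heavy chain-like genes on the X chromosome, the Fthl17 family, 5 copies were called lower. Fthl17c, listed as Gm14511 (identifier 434727), stood at 3.39 and 3.77 RPM in GSCLC_3, against 29.3, 39.5 and 40.8 RPM in the other lines and at 69.6 to 109 RPM in the GSC lines (-3.08 ± 0.19, adjusted p = 4.32e-07). Fthl17e, listed as Fthl17, stood at 7.63 and 6.47 RPM in GSCLC_3, against 12.5, 17.5 and 20.3 RPM (-1.13 ± 0.23, adjusted p = 0.00875). Fthl17d (Gm14458, -1.15), Fthl17b (Gm5634, -0.97) and Fthl17-ps1 (Gm14499, -1.90) were also lower, and in each of the 5 the groups did not overlap. These 3 copies and Fthl17f were added after their values were seen. Fthl17f (Gm5635) was not called, at 15 and 20.0 RPM in GSCLC_3 and 14.4, 20.3 and 29.4 RPM in the other lines (-0.18 ± 0.22, adjusted p = 0.659). The call of Fthl17 was lost without replicate 2 of GSCLC_3 (adjusted p = 0.0759). Fthl17-ps1 was at or under the floor of 3 implied reads in both GSCLC_3 libraries. The 3′ ends of Fthl17b, Fthl17c, Fthl17d and Fthl17e match each other over at least 50 bases at 98% identity or more. The longest match of each to another copy is 292 to 300 bases. Those of Fthl17c and Fthl17e also match Fthl17-ps1, whose own 3′ end was not compared. Reads may therefore have been divided among copies, and the value of a single copy is uncertain.

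The promoters of these copies are shown because the genes lie close together and 5 of them were called lower. Since reads may have been divided among copies, whether each copy fell was not tested. The promoters are taken from RefSeq (GRCm38.p6), as 250 bases before and 50 after each start. Those of the 5 called copies share a run of 73 bases, in capitals below, which 5 of 32851 promoters (0.0152%) hold on either strand. The promoter of Fthl17f, which was not called, holds the same stretch with 2 mismatches, so it does not set the called copies apart. The promoter of Fthl17c lies at chrX:8976510-8976809 on the minus strand and is the same as that of Fthl17b over all 300 bases. That of Fthl17e lies at chrX:9033236-9033535 on the plus strand and equals Fthl17c at 96.2% of 293 aligned bases.
Fthl17c: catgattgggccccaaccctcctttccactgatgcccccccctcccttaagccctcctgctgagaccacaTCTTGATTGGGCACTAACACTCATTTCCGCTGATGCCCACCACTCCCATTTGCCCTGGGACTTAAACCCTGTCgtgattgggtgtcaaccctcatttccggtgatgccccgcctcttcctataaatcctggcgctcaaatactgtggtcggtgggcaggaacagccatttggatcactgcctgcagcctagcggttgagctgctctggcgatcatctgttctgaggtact
Fthl17e: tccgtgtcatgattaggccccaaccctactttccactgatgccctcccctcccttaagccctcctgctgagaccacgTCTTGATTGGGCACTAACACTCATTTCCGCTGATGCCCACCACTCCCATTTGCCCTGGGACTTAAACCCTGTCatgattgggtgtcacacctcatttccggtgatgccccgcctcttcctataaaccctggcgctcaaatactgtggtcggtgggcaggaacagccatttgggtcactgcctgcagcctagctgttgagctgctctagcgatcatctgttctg
The shared run describes these copies and was not tested as a regulatory site.

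Among testis antigen genes of the X chromosome, Fthl17 included, 4 of 24 tested members were lower (16.7%, beside 5.0% over all tested genes) and 20 were not called. The median was -0.18, beside -0.09 over all genes. Magea2, a MAGE-family antigen, stood at 0.565 and 1.08 RPM in GSCLC_3, against 5.48, 11.1 and 14 RPM in the other lines (-2.62 ± 0.32, adjusted p = 0.000307). Usp26, a testis ubiquitin protease, stood at 159 and 212 RPM in GSCLC_3, against 255, 289 and 311 RPM (-0.63 ± 0.12, adjusted p = 0.00756). The other called members were Fthl17 and the transketolase-like gene Tktl1 (-0.41). All 4 were below the range of the other lines, and replicate 1 of GSCLC_3 was under the floor for Magea2. Calls were lost for Usp26 without replicate 1 of GSCLC_3 (adjusted p = 0.107) and for Tktl1 without either replicate of GSCLC_3, either replicate of GSCLC_1 or either replicate of GSCLC_2 (adjusted p up to 0.181), and for Tktl1 also after quantile normalization.

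Genes for stem cell self-renewal were called in both directions. Of 34 tested members, 3 were higher (8.82%, beside 2.5% over all tested genes), 4 lower (11.8%, beside 5.0%) and 27 not called, and the median was -0.04. Gfra1, the GDNF coreceptor, stood at 328 and 203 RPM in GSCLC_3 and at 284, 313 and 396 RPM in the other lines (-0.32 ± 0.15, adjusted p = 0.208). Ret stood at 279.6 and 288 RPM in GSCLC_3 and at 221, 242 and 285 RPM in the other lines (0.20 ± 0.12, adjusted p = 0.325). Etv5, Bcl6b, Zbtb16, Id4, Nanos2, Lhx1, T, Egr1, Egr2 and Kit did not pass either. Etv5, a transcription factor downstream of GDNF and FGF2, stood at 291 and 173 RPM in GSCLC_3 and at 222, 260.4 and 320.4 RPM in the other lines (-0.21 ± 0.15, adjusted p = 0.439). Nanos2, an RNA-binding protein that maintains stem cells, stood at 7.63 and 5.39 RPM in GSCLC_3 and at 5.26, 9.35 and 22.1 RPM in the other lines (-0.58 ± 0.41, adjusted p = 0.418). Gfra1 overlaps at its 3′ end with Gm16277 on the opposite strand over 275 bases, so its value is uncertain. The groups overlapped in each of the genes that did not pass, and differences smaller than the spread of the cultures were not detectable.

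The called members of that list, besides Sohlh1 and Itgb1, were a mixed group. Id1, a target of BMP signals, stood at 52 and 36.7 RPM in GSCLC_3, against 12.8, 16.6 and 45.6 RPM in the other lines (1.03 ± 0.21, adjusted p = 0.00978), and GSCLC_4 was as high, at 45.6 and 39.9 RPM. Itga6, a laminin receptor subunit used to enrich spermatogonial stem cells, stood at 56.3 and 44.5 RPM in GSCLC_3, against 83.3, 90.8 and 99.9 RPM (-0.84 ± 0.14, adjusted p = 0.00272), with no overlap. Utf1, a chromatin protein of undifferentiated spermatogonia, stood at 33.6 and 15.1 RPM in GSCLC_3, against 25.3, 53.2 and 93.5 RPM (-1.06 ± 0.24, adjusted p = 0.015), and GSCLC_1 lay within the range of GSCLC_3. Cd9, a tetraspanin of the stem cell surface on distal chromosome 6, fell by 0.46 ± 0.11, with a difference of -0.09 from GSCLC_1, and Sall1, a zinc finger repressor, by 0.89 ± 0.20. Leaving out a library ended the call for Id1 without replicate 1 of GSCLC_3 (adjusted p = 0.123), for Itga6 without replicate 2 of GSCLC_3 (adjusted p = 0.0569) and for Utf1 without replicate 2 of GSCLC_3 (adjusted p = 0.24). The same happened for Cd9 without replicate 2 of GSCLC_3, either replicate of GSCLC_1 or replicate 2 of GSCLC_2 (adjusted p up to 0.25) and for Sall1 without either replicate of GSCLC_3 (adjusted p up to 0.0931).

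Of the piRNA pathway, which silences transposons, 3 genes rose and 2 fell. The germ cell list had 3 rises and 1 fall among 25 tested members, with a median of 0.08, and the piRNA list 3 rises and 2 falls among 23, with a median of 0.09. Mael, a piRNA pathway protein, stood at 558 and 565 RPM in GSCLC_3, against 234, 339 and 501 RPM in the other lines (0.74 ± 0.10, adjusted p = 0.000695). Mov10l1, the helicase that feeds precursors into piRNA production, stood at 356 and 341 RPM in GSCLC_3, against 175, 223 and 252 RPM (0.69 ± 0.12, adjusted p = 0.00317). Tdrd1, a scaffold of the piRNA machinery, stood at 177 and 195 RPM in GSCLC_3, against 104, 141 and 176 RPM (0.41 ± 0.12, adjusted p = 0.0487). These 3 genes are on both lists, and in each GSCLC_3 was above the other 6 libraries. Mael and Mov10l1 were not called against GSCLC_1 alone, and Tdrd1 kept its call under 8 of 23 alternative settings, being lost without either replicate of GSCLC_3, either replicate of GSCLC_1, either replicate of GSCLC_2 or replicate 1 of GSCLC_4 (adjusted p up to 0.277).

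Other members of these lists fell. Piwil1, the PIWI protein of meiotic and later cells, stood at 2.83 and 0.809 RPM in GSCLC_3, against 5.2, 9.58 and 13.3 RPM in the other lines (-1.87 ± 0.34, adjusted p = 0.00538). Tdrd5, needed for transposon silencing and spermatid formation, stood at 45 and 54.2 RPM in GSCLC_3, against 57, 90.8 and 116 RPM (-0.80 ± 0.14, adjusted p = 0.00497). Tuba3a, a testis tubulin gene on distal chromosome 6, fell by 0.54 ± 0.10 (adjusted p = 0.00529). In all 3 GSCLC_3 was below the other 6 libraries, and its replicate 2 was at the floor for Piwil1. Among these, the call was lost for Piwil1 without replicate 2 of GSCLC_3 (adjusted p = 0.0762) and for Tdrd5 without replicate 1 of GSCLC_3 (adjusted p = 0.0613), and for Tuba3a in the fit on line means and without a variance trend.

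Genes of differentiation and meiosis were called in both directions. The differentiation list had 2 rises (10.53%) and 1 fall (5.263%) among 19 tested members, with a median of -0.14. The meiotic list had 1 rise, Syce2 (4.348%), and 3 falls (13.04%) among 23, with a median of -0.23. Over all tested genes 2.5% were higher and 5.0% lower. Beside Sohlh1, the risen gene of differentiation was Uchl1, a ubiquitin hydrolase abundant in spermatogonia, at 1067 and 1254 RPM in GSCLC_3, against 745, 842 and 1017 RPM in the other lines (0.43 ± 0.09, adjusted p = 0.014). Stra8, the retinoic acid target that opens meiosis, stood at 5.09 and 2.97 RPM in GSCLC_3, against 4.96, 16.3 and 21.4 RPM (-1.60 ± 0.33, adjusted p = 0.0101), and a single library of GSCLC_2 reached into the range of GSCLC_3. Stag3, a meiotic cohesin subunit, stood at 184 and 213 RPM in GSCLC_3, against 266, 304 and 336 RPM (-0.61 ± 0.11, adjusted p = 0.00393). Hspa2, a testis chaperone of meiotic cells, stood at 7.07 and 7.55 RPM in GSCLC_3, against 18.1, 24.8 and 37.7 RPM (-1.64 ± 0.21, adjusted p = 0.00042). Stag3 and Hspa2 were below all 6 other libraries. Calls were lost for Uchl1 without replicate 2 of GSCLC_3 (adjusted p = 0.163), for Stra8 without replicate 2 of GSCLC_3 (adjusted p = 0.125) and for Stag3 without replicate 1 of GSCLC_3 (adjusted p = 0.0535).

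Retinoic acid genes held 4 falls (28.6%, beside 5.0% over all tested genes) and 0 rises among 14 tested members. Their median was -0.21. Aldh1a2, an enzyme that makes retinoic acid, stood at 7.35 and 9.7 RPM in GSCLC_3, against 15.9, 21.3 and 32.6 RPM in the other lines (-1.32 ± 0.21, adjusted p = 0.00217). Aldh1a3, a related enzyme, stood at 2.54 and 1.62 RPM in GSCLC_3, against 6.6, 8.22 and 11.8 RPM (-1.65 ± 0.33, adjusted p = 0.0094). Rbp4, the carrier of retinol in blood, stood at 34.2 and 27.8 RPM in GSCLC_3, against 34.3, 50.1 and 61 RPM (-0.61 ± 0.16, adjusted p = 0.0344). These 3 were below the other 6 libraries, Rbp4 only just, and Stra8 was the remaining called member. Leaving out a library ended the call for Aldh1a3 without replicate 2 of GSCLC_3 (adjusted p = 0.0921) and for Rbp4 without either replicate of GSCLC_3, either replicate of GSCLC_1 or either replicate of GSCLC_2 (adjusted p up to 0.249), and for Rbp4 also after quantile normalization.

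Pluripotency genes had 1 rise (5.56%, beside 2.5% over all tested genes) and 3 falls (16.7%, beside 5.0%) among 18 tested members. Their median was -0.30. Sox2, a core factor of embryonic stem cells, stood at 113 and 128 RPM in GSCLC_3, against 22.3, 53.9 and 118 RPM in the other lines and at 30.3 to 37.9 RPM in the GSC lines (1.23 ± 0.15, adjusted p = 0.000307). GSCLC_1 had 118 and 92.2 RPM, so Sox2 was high in GSCLC_3 and GSCLC_1 and lower in GSCLC_2, GSCLC_4 and the GSC lines. Pou5f1, which encodes OCT4, stood at 0.565 and 1.62 RPM in GSCLC_3, against 1.76, 5.45 and 8.56 RPM in the other GSCLC lines and at 15.9 to 35.5 RPM in the GSC lines (-1.56 ± 0.40, adjusted p = 0.0302). Tcl1, a coactivator of AKT, stood at 43.3 and 43.7 RPM in GSCLC_3, against 57.4, 73.6 and 85 RPM (-0.70 ± 0.13, adjusted p = 0.00659). The third fallen member was Utf1. For Pou5f1, replicate 1 of GSCLC_3 was under the floor of 3 implied reads. Among these, the call was lost for Tcl1 without replicate 2 of GSCLC_3 (adjusted p = 0.0527) and for Pou5f1 without either replicate of GSCLC_3, either replicate of GSCLC_1, replicate 2 of GSCLC_2 or replicate 2 of GSCLC_4 (adjusted p up to 0.187), and for Pou5f1 also after quantile normalization. Part of the 3′ end of Pou5f1 lies over Gm19553 on the opposite strand, so its value is uncertain.

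Patterning genes were called lower more often than higher, as were the tested genes as a whole. Among 34 tested developmental transcription factors, 8 were lower (23.5%, beside 5.0% over all tested genes) and 1 higher (2.94%, beside 2.5%). Their median was -0.38. Of the Hox genes, 2 of 4 tested Hoxa genes, 1 of 8 Hoxb genes and 1 of 2 Hoxc genes were lower, and 0 Hoxd genes reached the filter. Hoxa10 stood at 0.283 and 0.27 RPM in GSCLC_3, against 4.28, 14.9 and 23.8 RPM in the other lines and at 1.51 to 3.91 RPM in the GSC lines (-3.37 ± 0.32, adjusted p = 3.11e-05). Hoxa13 stood at 0.283 and 0 RPM in GSCLC_3, against 2.84, 10.4 and 12.3 RPM (-2.90 ± 0.34, adjusted p = 0.000286). Evx1, which lies beside the Hoxa cluster, was listed at 0 in both GSCLC_3 libraries, against 2.84, 5.72 and 9.02 RPM in the other lines. GSCLC_3 was under the floor of 3 implied reads for all 3 genes. GSCLC_1 was the line nearest to it for Hoxa10 and Hoxa13, and against GSCLC_1 alone Hoxa13 was not called.

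Other patterning genes differed less. Tcf15, a factor of somite formation, stood at 21.8 and 15.1 RPM in GSCLC_3, against 23.1, 65.9 and 88.2 RPM in the other lines (-1.66 ± 0.26, adjusted p = 0.00194). Otx1, a homeobox gene of the forebrain, stood at 0.848 and 0.27 RPM in GSCLC_3, against 1.66, 8.87 and 20.5 RPM (-2.41 ± 0.38, adjusted p = 0.00217), and a stretch of 57 bases of its 3′ end occurs in other genes, so its value is uncertain. GSCLC_3 was at or under the floor for Otx1, GSCLC_1 had 2.00 and 1.66 RPM, and against GSCLC_1 alone Otx1 was not called. Dlx3, Barhl2 and Barx1, homeobox genes of epidermis, nervous system and jaw, fell by 1.38, 1.10 and 1.12. Hoxb7 fell by 0.67 ± 0.16 and Hoxc9 by 1.87 ± 0.38. Hoxc9 was at or under the floor in GSCLC_3, at 0.848 and 0.809 RPM, and was not called against GSCLC_1 or GSCLC_2 alone. In these 7 genes GSCLC_3 was below all 6 other libraries. Calls were lost for Tcf15 without replicate 2 of GSCLC_3 (adjusted p = 0.0538), for Dlx3 without replicate 2 of GSCLC_3 (adjusted p = 0.057) and for Barhl2 without replicate 1 of GSCLC_3 (adjusted p = 0.115). They were lost for Barx1 without replicate 2 of GSCLC_3 (adjusted p = 0.199), for Hoxc9 without replicate 2 of GSCLC_3 (adjusted p = 0.0638) and for Hoxb7 without either replicate of GSCLC_3 or replicate 2 of GSCLC_1 (adjusted p up to 0.105), and for Hoxb7 also after quantile normalization.

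Sertoli cell genes had 4 falls and 0 rises among 10 tested members, beside 5.0% lower over all tested genes. In 2 of the 4 falls GSCLC_3 was below all 6 other libraries. The median was -0.62, and 4 of the 10 members had a difference above 0. The summed level of the list was 413 and 538 RPM in GSCLC_3 and 395 to 542 RPM in the other lines. Wt1, a defining Sertoli cell factor, stood at 4.81 and 2.97 RPM in GSCLC_3, against 6.15, 14 and 29.8 RPM in the other lines (-1.58 ± 0.29, adjusted p = 0.00557). The other defining markers, Sox9 and Amh, did not reach the filter. Aard, a testis gene, fell by 1.50 ± 0.30. Trf, transferrin, was called lower (-0.91 ± 0.19, adjusted p = 0.0104) at 20.1 and 15.9 RPM in GSCLC_3, although GSCLC_4 was lower still, at 13 and 11.9 RPM. Rhox5, an X-linked homeobox gene, stood at 2.54 and 1.62 RPM in GSCLC_3, 3.42 and 2.84 RPM in GSCLC_1, 1.5 and 2.61 RPM in GSCLC_2 and 69.4 and 68.3 RPM in GSCLC_4 (-1.65 ± 0.31, adjusted p = 0.00648). GSCLC_4 alone stood apart for Rhox5, and without that line the gene was not called. Leaving out a library ended the call for Wt1 without replicate 2 of GSCLC_3 (adjusted p = 0.0755), for Aard without replicate 1 of GSCLC_3 (adjusted p = 0.0559), for Trf without replicate 2 of GSCLC_3 (adjusted p = 0.117) and for Rhox5 without replicate 2 of GSCLC_3 (adjusted p = 0.0659). The summed fibroblast genes, at 773 and 1005 RPM in GSCLC_3 and 625.3 to 1050 RPM in the other lines, had 0 calls with limma among 27 tested members, 3 of them at an unadjusted p under 0.05, and a median of 0.31.

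Imprinted genes, of which the copy from a single parent is transcribed, had 1 rise and 1 fall among 14 maternally expressed members and as many among 16 paternally expressed members, with medians of -0.09 and -0.12. These calls were 7.14% and 6.25% of their lists in each direction, beside 2.5% higher and 5.0% lower over all tested genes. Beside Grb10, the maternally expressed Phlda2, a gene that restricts growth, stood at 15.8 and 9.43 RPM in GSCLC_3, against 10.8, 34.6 and 47.2 RPM in the other lines (-1.08 ± 0.22, adjusted p = 0.00947), with GSCLC_1 at the same level. Igf2, a growth factor transcribed from the paternal copy, stood at 121 and 89.5 RPM in GSCLC_3, against 18.5, 57.9 and 76.4 RPM in the other GSCLC lines and at 74.3 to 121 RPM in the GSC lines (1.08 ± 0.31, adjusted p = 0.0449). Mest, also paternally expressed, stood at 67.9 and 28.3 RPM in GSCLC_3, against 102, 132 and 167 RPM in the other GSCLC lines and at 37.7 to 78.6 RPM in the GSC lines (-1.52 ± 0.23, adjusted p = 0.00128). For Igf2 and Mest, GSCLC_3 was apart from the other GSCLC lines and overlapped the GSC lines. Mest was called under all 23 alternative settings. Among these, the call was lost for Phlda2 without replicate 2 of GSCLC_3 (adjusted p = 0.132) and for Igf2 without either replicate of GSCLC_3, either replicate of GSCLC_1 or either replicate of GSCLC_2 (adjusted p up to 0.28). The 3′ end of Mest lies over Copg2 on the opposite strand and that of Igf2 in Gm49394, so both values are uncertain.

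Genes of DNA methylation had 0 calls with limma among 14 tested members, 2 of them at an unadjusted p under 0.05, and a median of -0.15. Among 31 Polycomb genes, with a median of -0.12, Rybp on distal chromosome 6 was the called gene (3.23%, beside 7.5% over all tested genes). It stood at 58 and 57.7 RPM in GSCLC_3, against 65.2, 93 and 105 RPM in the other lines (-0.58 ± 0.13, adjusted p = 0.0166). Rybp was not called against GSCLC_1 alone, nor with GSCLC_4 left out of the other lines. It was below the other 6 libraries, and its call was lost without either replicate of GSCLC_3 or replicate 1 of GSCLC_2 (adjusted p up to 0.101).

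Interferon response and antigen presentation genes had 5 rises (31.25%, beside 2.5% over all tested genes) and 0 falls among 16 tested members. Their median was 0.19. Gbp2, a guanylate-binding protein that acts against intracellular pathogens, stood at 66.4 and 104 RPM in GSCLC_3, against 20.4, 25.2 and 63.9 RPM in the other lines (1.42 ± 0.20, adjusted p = 0.00105). Gbp3, a relative, stood at 24 and 31.8 RPM in GSCLC_3, against 3.51, 6.15 and 33.4 RPM (1.61 ± 0.33, adjusted p = 0.00916). Both lie on distal chromosome 3, and against GSCLC_1 alone neither was called. Ifitm1 (0.63 ± 0.17), the immunoproteasome subunit Psmb8 (1.88 ± 0.51) and the class I light chain B2m (0.45 ± 0.13) lie on other chromosomes, and in these 3 genes GSCLC_3 was above all 6 other libraries. Against GSCLC_1 alone these 3 were not called either. Calls were lost for Gbp3 without replicate 2 of GSCLC_3 (adjusted p = 0.119) and for Ifitm1 without either replicate of GSCLC_3, either replicate of GSCLC_1 or either replicate of GSCLC_2 (adjusted p up to 0.297). The same happened for Psmb8 without either replicate of GSCLC_3, either replicate of GSCLC_1 or replicate 1 of GSCLC_2 (adjusted p up to 0.185) and for B2m without either replicate of GSCLC_3, either replicate of GSCLC_1 or replicate 1 of GSCLC_2 (adjusted p up to 0.342).

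Metabolic lists held 1 to 3 calls each. The share called was 4.55% in fatty acid metabolism, 9.09% in glycolysis and 12.5% in unfolded protein and amino acid stress. Over all tested genes it was 7.5%. Acly, which makes cytosolic acetyl-CoA from citrate, stood at 191 and 182 RPM in GSCLC_3, against 281, 359.6 and 432 RPM in the other lines (-0.94 ± 0.11, adjusted p = 0.000257), with no overlap. It was the called gene of 22 in fatty acid metabolism, whose median was 0.00. Of 22 glycolysis genes, with a median of -0.05, Pfkp, a phosphofructokinase, fell by 0.69 ± 0.14, and Hk2, a hexokinase on distal chromosome 6, by 0.74 ± 0.17. Hk2 was not called against GSCLC_1 alone, nor with GSCLC_2 left out of the other lines. Phgdh, the entry enzyme of serine synthesis, stood at 575 and 624 RPM in GSCLC_3, against 325, 429 and 459 RPM in the other lines (0.54 ± 0.10, adjusted p = 0.00621). Shmt2, which passes on the carbon of serine in mitochondria, fell by 0.53 ± 0.13, and the chaperone Dnajb9 by 0.62 ± 0.15. Phgdh, Shmt2 and Dnajb9 were the called genes among 24 of the unfolded protein and amino acid stress list, whose median was -0.18. Omitting a library ended the call for Pfkp without either replicate of GSCLC_3 (adjusted p up to 0.0902), for Hk2 without replicate 1 of GSCLC_3 or replicate 1 of GSCLC_2 (adjusted p up to 0.147) and for Phgdh without replicate 2 of GSCLC_3 (adjusted p = 0.0762). It was lost for Shmt2 without either replicate of GSCLC_3, replicate 2 of GSCLC_1 or replicate 1 of GSCLC_2 (adjusted p up to 0.156) and for Dnajb9 without replicate 2 of GSCLC_3, replicate 1 of GSCLC_1 or replicate 1 of GSCLC_2 (adjusted p up to 0.254). Phgdh and Dnajb9 were not called against GSCLC_1 or GSCLC_2 alone, nor Shmt2 against GSCLC_1 or GSCLC_4 alone, nor Pfkp against GSCLC_1 alone. The 3′ end of Phgdh shares 167 bases with Gm7901 and Gm9347, so its value is uncertain.

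Of 23 heat shock genes, 3 were lower (13.04%, beside 5.0% over all tested genes) and 1 higher (4.348%, beside 2.5%), with a median of -0.14. Hspa4l, an HSP110-family chaperone, fell by 0.69 ± 0.13, and Hspa8, the constitutive HSP70, by 0.30 ± 0.08, with Hspa2 as the third fall. Dnajb4, a cochaperone on distal chromosome 3, was called higher (0.74 ± 0.21). Its difference was 1.175 from GSCLC_2 and 0.942 from GSCLC_4, but 0.115 from GSCLC_1, whose libraries overlapped those of GSCLC_3. Against GSCLC_1 alone Dnajb4 was not called, nor with GSCLC_2 or GSCLC_4 left out of the other lines. GSCLC_3 lay within the range of the GSC lines, 27.8 to 50.5 RPM. Of 22 oxidative stress genes, with a median of 0.02, 3 rose (13.6%, beside 2.5% over all tested genes). They were Gsr and Prdx2 on chromosome 8 and the mitochondrial superoxide dismutase Sod2 on chromosome 17 (0.49 ± 0.13). Among these, the call was lost for Hspa4l without replicate 1 of GSCLC_3 (adjusted p = 0.0646), for Hspa8 without either replicate of GSCLC_3, either replicate of GSCLC_1 or either replicate of GSCLC_2 (adjusted p up to 0.16) and for Dnajb4 without either replicate of GSCLC_3, either replicate of GSCLC_1, either replicate of GSCLC_2 or replicate 1 of GSCLC_4 (adjusted p up to 0.195), and for Sod2 without either replicate of GSCLC_3, either replicate of GSCLC_1 or replicate 1 of GSCLC_2 (adjusted p up to 0.294). Hspa8 was not called against GSCLC_1, GSCLC_2 or GSCLC_4 alone, nor Sod2 against GSCLC_1 or GSCLC_2 alone, nor Hspa4l against GSCLC_1 alone. The 3′ end of Hspa8 is near-identical to that of pseudogenes, so its value is uncertain.

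Lists of proliferation genes held 1 call each, all lower, a share of 2.94% to 5.26% beside 5.0% lower over all tested genes. Mki67, a mark of cycling cells, was the called gene of 27 in G2 and mitosis (-0.47 ± 0.12), the transcription factor E2f1 that of 19 G1 regulators (-0.67 ± 0.13) and the clamp loader subunit Rfc5 that of 34 replication genes (-0.64 ± 0.12). The medians of these 3 lists were -0.03, -0.07 and -0.04. Calls were lost for Mki67 without either replicate of GSCLC_3, replicate 1 of GSCLC_1 or replicate 1 of GSCLC_2 (adjusted p up to 0.126), for E2f1 without replicate 2 of GSCLC_3 (adjusted p = 0.104) and for Rfc5 without replicate 2 of GSCLC_3 (adjusted p = 0.0913), a gene whose 3′ end overlaps Wsb2 on the opposite strand. The p53 targets, with a median of 0.07 over 21 genes, and the hypoxia response, with a median of -0.10 over 16, had 0 calls with limma, and 4 genes of each had an unadjusted p under 0.05.

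Signalling, adhesion and chromatin lists held 1 to 4 calls each, 3.85% to 21.4% of their tested members, beside 7.5% over all tested genes. Id1 was the called gene of 26 in BMP, TGF-beta and activin signalling. Of 24 Wnt genes, the receptor Lgr5 fell by 1.52 ± 0.29 and the inhibitor Sfrp2 by 0.77 ± 0.22. Of 14 receptor genes for the growth factors of the medium, Fgfr1 rose, and Gpc4 and the neuregulin receptor Erbb3 fell, Erbb3 by 1.24 ± 0.30. Erbb3 stood at 3.96 and 4.58 RPM in GSCLC_3, 2.85 and 7.09 RPM in GSCLC_1, 8.27 and 9.13 RPM in GSCLC_2 and 34.1 and 34.6 RPM in GSCLC_4, and it was not called against GSCLC_1 or GSCLC_2 alone, nor with GSCLC_4 left out. Ier3, a survival gene induced by ERK, stood at 20.1 and 24.5 RPM in GSCLC_3, against 30.1, 42.4 and 76.7 RPM in the other lines (-0.97 ± 0.18, adjusted p = 0.00659), and it and Dusp4 were the called genes of 31 in the ERK response, whose median was -0.05. Of 26 adhesion genes, with a median of -0.25, Itgb1 rose, and Itga6, Cd9 and the laminin chain Lamb1 (-0.47) fell. Of 36 chromatin genes, with a median of 0.06, Hmgb2 rose and the remodeller Chd4 (-0.42), on distal chromosome 6, fell. Chd4 was not called against GSCLC_1 or GSCLC_2 alone, nor with GSCLC_2 or GSCLC_4 left out of the other lines. Omitting a library ended the call for Lgr5 without replicate 1 of GSCLC_3 (adjusted p = 0.0728), for Erbb3 without either replicate of GSCLC_3 (adjusted p up to 0.12) and for Ier3 without replicate 1 of GSCLC_3 (adjusted p = 0.0694). The same happened for Sfrp2 without either replicate of GSCLC_3, either replicate of GSCLC_1, either replicate of GSCLC_2 or replicate 1 of GSCLC_4 (adjusted p up to 0.229), for Lamb1 without either replicate of GSCLC_3, either replicate of GSCLC_1 or replicate 2 of GSCLC_2 (adjusted p up to 0.168) and for Chd4 without replicate 2 of GSCLC_3, either replicate of GSCLC_1 or either replicate of GSCLC_2 (adjusted p up to 0.369), and for Sfrp2 and Lamb1 also after quantile normalization. Part of the 3′ end of Sfrp2 lies over Gm26771 on the opposite strand, so its value is uncertain.

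**Figure D4:**
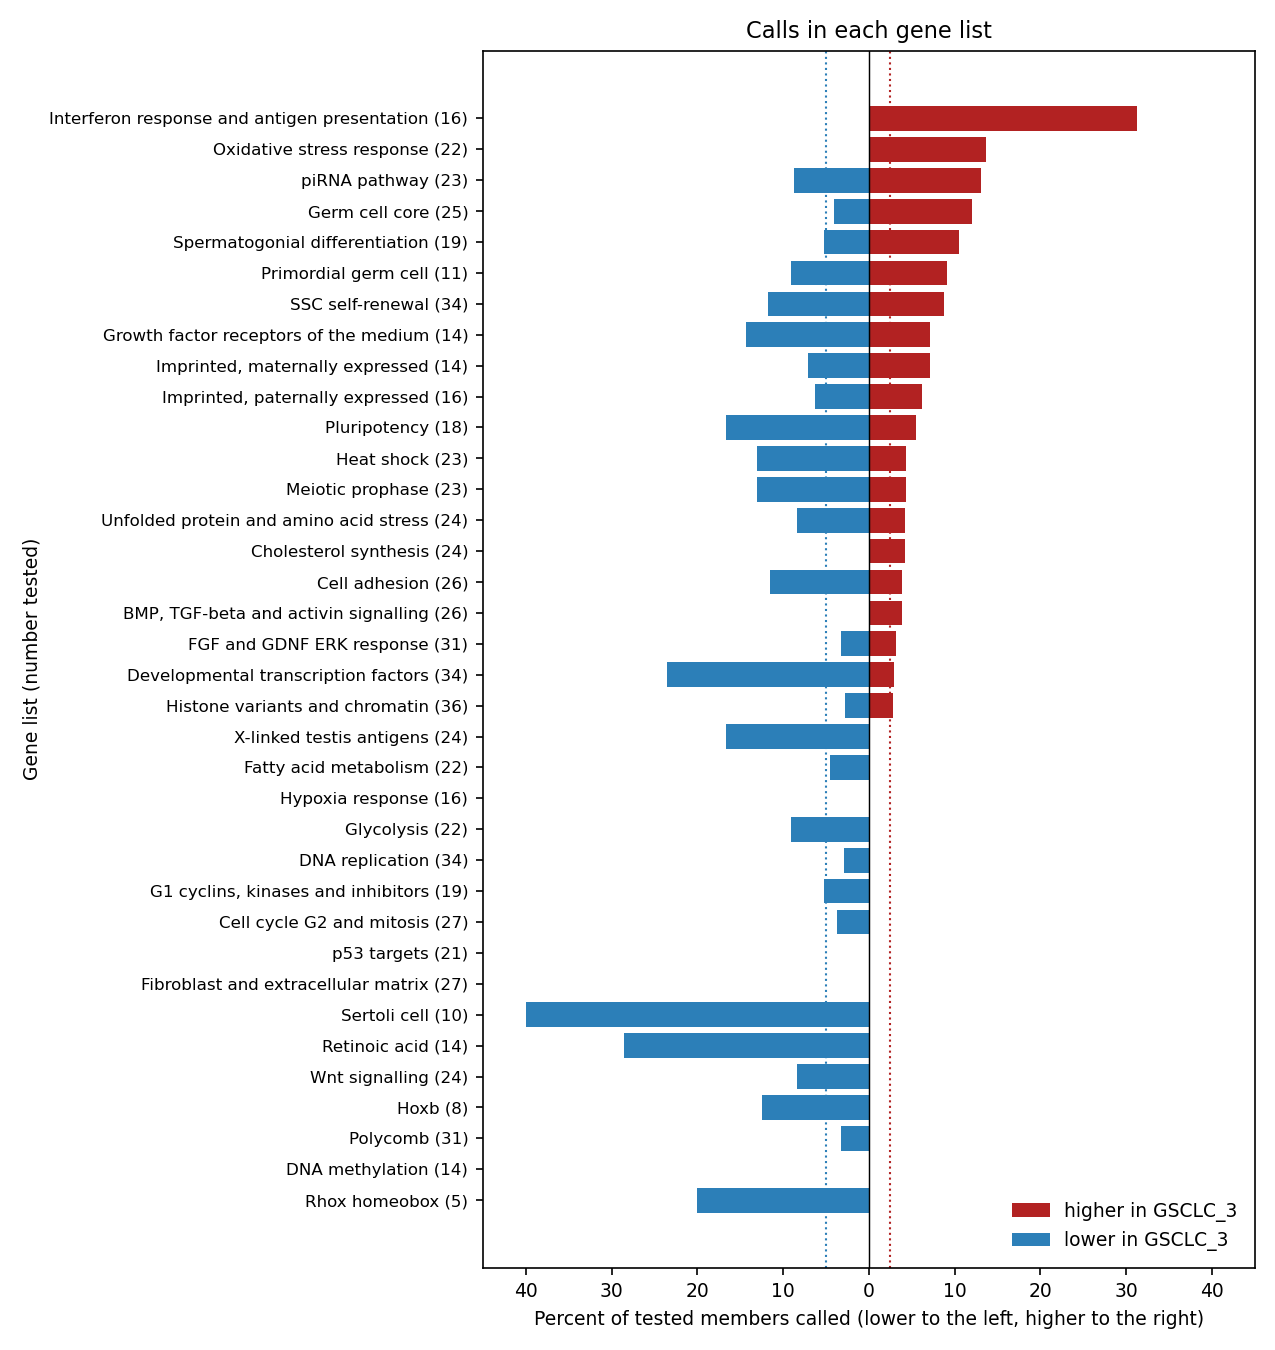
Bars give the percent of tested members of each list that were called higher or lower in GSCLC_3, for lists with at least 5 tested members. Dotted lines mark the 2.5% higher and 5.0% lower over all tested genes. The interferon list has the longest bar for higher genes, 5 of 16, and the Sertoli cell list the longest for lower genes, 4 of 10.

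Set beside the GSC lines, the calls fell on either side. Of the 286 higher genes, 71 were nearer to the GSC mean in GSCLC_3 than in the other lines, Sohlh1 and Lgals1 among them. Distal chromosome 3 held 13 of these 71, out of its 16 rises, and chromosome 8 held 13, out of its 148. Of the 573 lower genes, 203 were nearer to the GSC mean, Mest and Tmem40 among them, and 61 of these 203 lay on distal chromosome 6. The share nearer to it over all tested genes is not given here, so no tendency is read from these counts. Grb10, Pycard, AU022751 and Gm364 stood farther from the GSC mean in GSCLC_3 than in the other lines.

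The distance of GSCLC_3 from the other lines was uneven. Against GSCLC_2, which shares its temperature schedule, 604 genes were called (5.27%), 254 higher (2.22%) and 350 lower (3.06%). Against GSCLC_1, 135 genes were called (1.18%), 57 higher (0.498%) and 78 lower (0.681%). Against GSCLC_4, 1280 genes were called (11.2%), 366 higher (3.2%) and 914 lower (7.98%). These comparisons share the libraries of GSCLC_3. Set in the same way against the mean of the other 3 lines, GSCLC_1 differed at 35 genes (0.306%), GSCLC_2 at 183 (1.6%) and GSCLC_4 at 685 (5.98%). Whether the number of calls differs between lines was not tested.

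The cultures of GSCLC_3 were themselves apart at part of the genes. Replicate 1 exceeded replicate 2 by more than 2-fold at 382 genes (3.34%) and fell short of it by as much at 230 genes (2.01%), 612 in all. The corresponding totals were 308 in GSCLC_1 (2.69%), 338 in GSCLC_2 (2.95%) and 516 in GSCLC_4 (4.51%). With 1 library on each side these differences have no test.

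Targets of FGF and GDNF signalling through ERK were among the genes that differed between the cultures. Of 31 tested members, 8 were more than 2-fold higher in replicate 1 and 0 lower, with a median of 0.60, while 1, 0 and 3 members differed by as much in GSCLC_1, GSCLC_2 and GSCLC_4. Dusp6, a phosphatase that limits ERK, stood at 335 and 153 RPM in GSCLC_3 and at 91.4, 153 and 201 RPM in the other lines. Fos, an immediate early transcription factor, stood at 49.5 and 21.3 RPM in GSCLC_3 and at 20.1, 24.9 and 35 RPM in the other lines, and Myc, a growth regulator, at 32 and 14.3 RPM in GSCLC_3 and at 12, 25.3 and 39.2 RPM in the other lines. Replicate 1 was above the range of the other lines for Dusp6 and Fos, and both replicates lay within it for Myc. Eomes, a T-box gene, stood at 41.8 and 8.09 RPM in GSCLC_3 and at 4.76, 14.4 and 17.5 RPM in the other lines, and Tbc1d1, a regulator of vesicle traffic, at 20.6 and 4.04 RPM in GSCLC_3 and at 12.3, 16.4 and 26.1 RPM in the other lines. Replicate 1 was above the other lines for Eomes, and replicate 2 below them for Tbc1d1. Eomes and Tbc1d1 were picked among genes that differed by less than 2-fold between the replicates of each other line. The closeness of those replicates was therefore set by the choice.

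Other genes were lower in replicate 1. Ddit4, a stress-induced inhibitor of mTOR signalling, stood at 32.2 and 102 RPM in GSCLC_3 and at 74.5, 91.1 and 114 RPM in the other lines. Sox3, an X-linked transcription factor of undifferentiated spermatogonia, stood at 5.65 and 37.2 RPM in GSCLC_3 and at 19.2, 43.7 and 70.9 RPM in the other lines. Cxcl12, a chemokine, stood at 1.7 and 20.2 RPM in GSCLC_3 and at 8.85, 10.3 and 17 RPM in the other lines, and Erg, an ETS factor, at 15 and 48.8 RPM in GSCLC_3 and at 14.1, 23 and 26.1 RPM in the other lines. For Ddit4, Sox3 and Cxcl12 replicate 1 lay below the other lines, and for Erg replicate 2 lay above them. These genes, too, were picked among those that differed by less than 2-fold between the replicates of each other line. Of 22 glycolysis genes and 16 hypoxia genes, 6 each were more than 2-fold lower in replicate 1, with medians of -0.39 and -0.45. In GSCLC_1, 6 and 5 members of these lists also differed between its cultures by more than 2-fold. Beside these differences, the chromosome 8 medians of both cultures, 0.42 and 0.39, were close.

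**Figure D5:**
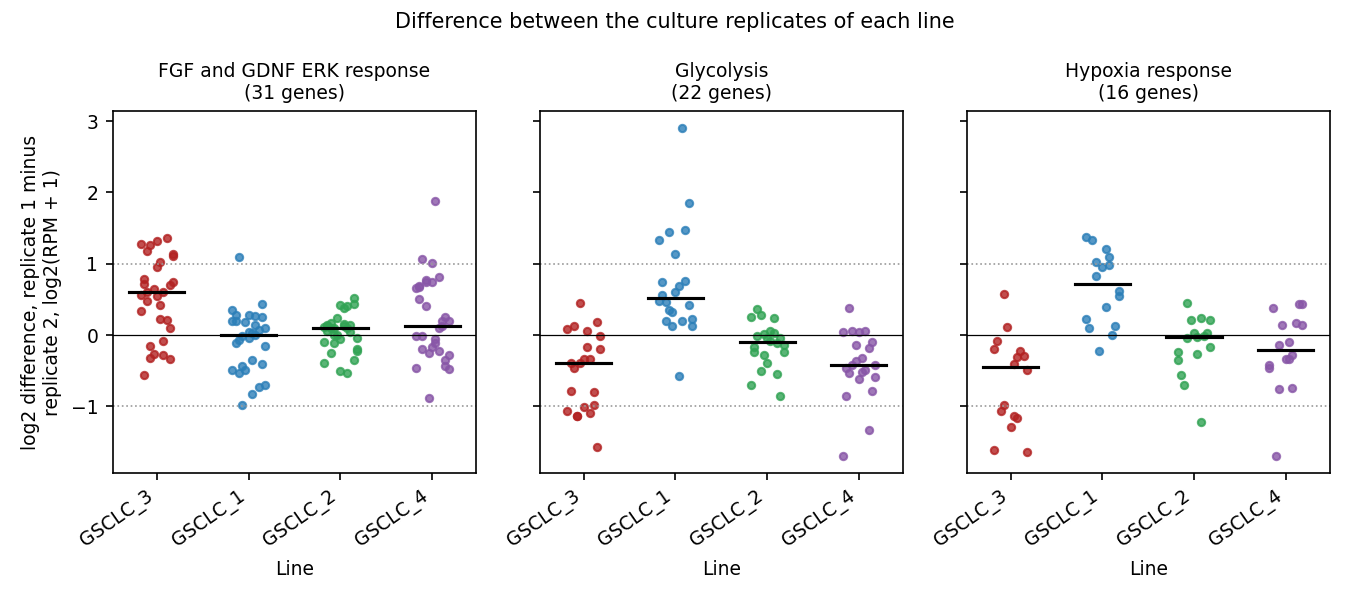
Points are the members of 3 gene lists, and the vertical axis gives the log2 difference between replicate 1 and replicate 2 of each line, GSCLC_3 first. Black bars are medians and dotted lines mark 2-fold. For the FGF and GDNF ERK response GSCLC_3 has a median of 0.60 and 8 of 31 points above the upper line.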

How the data were processed

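RNA of 12 libraries from 6 mouse lines was measured by SC3-seq. The authors deposited 1 table of RPM for 26219 genes, with mm10 (GRCm38), cutadapt 1.3, TopHat 1.4.1 and Cufflinks 2.2.0 per the submitters' processing notes. Neither the roles of these tools nor the use of strand is given in the sources used here. RPM totals were 999885 to 999962. Low values lay near whole multiples of a step, within 0.1 of a step for 99.73% to 99.84% of values, and the implied depth only describes precision; no count test was run. Since amplified reads carried no stated molecular identifiers, they need not be independent molecules.

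Genes that reached 5 RPM in 2 or more of the 8 GSCLC libraries were tested with limma 3.58.1 (R 4.3.3), with a variance trend, on log2(RPM + 1), which understates changes of low genes. A gene could pass this filter through GSCLC_3 alone or through the other lines alone. Each line had a coefficient, with 4 residual degrees of freedom, and GSCLC_3 was compared with the mean of GSCLC_1, GSCLC_2 and GSCLC_4. P-values are two-sided with Benjamini-Hochberg adjustment. The labels call replicates 1 and 2 biological replicates of the culture. Their chi-square per gene was 3.77 to 6.49, so none was treated as a duplicate. The procedure was tested on simulated data.

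The named genes are, per direction, the 12 with the largest difference among called genes with both GSCLC_3 libraries outside the other 6 and at least 20 RPM in the higher group. To these were added up to 6 called members of each list, genes called on line means and a set of germ cell genes given in every case. Per direction, 8 genes with the largest difference between the GSCLC_3 replicates were also added. They were taken from genes with at least 20 RPM in the higher replicate. Only genes that differed by less than 2-fold between the replicates of each other line were eligible. The members and the lists were chosen with earlier results of these data known. The 3′ ends (300 bases) were compared with BLAST+ 2.17.0, at 50 or more bases and 98% identity. Of the 11453 tested identifiers, 11089 matched RefSeq. Alternatives covered the pseudocount, filter, normalization, variance trend, replicate block, single reference lines and omitted libraries. Some abundant genes of chromosome 8 are not reported here.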

Additional observations from a re-analysis of the deposited data

Results flagged for a closer look

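Among 128 named genes, 5 had a library far from the other 5 of the 6 GSCLC libraries outside GSCLC_3, by Dixon's criterion at the 95% level, which chance meets in about 1 in 20 groups. Stra8 was lowest in replicate 2 of GSCLC_2, at 4.96 RPM. Tcf15 was lowest in replicate 2 of GSCLC_4, at 23.1 RPM. Gm14511 was lowest in replicate 1 of GSCLC_2, at 29.3 RPM. Egr2 was highest in replicate 2 of GSCLC_1, at 91.2 RPM. Erg was lowest in replicate 2 of GSCLC_2, at 14.1 RPM. These 5 values come from 4 libraries of 3 lines, and no library of GSCLC_3 is among these because its group of 2 is too small for the criterion.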

How the results depend on the processing

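The 286 higher and 573 lower genes became 153 and 227 without a filter on low values, 99 and 244 without a variance trend, and 2 and 10 on line means. Quantile normalization gave 330 and 320. Against single lines the counts were 57 and 78 for GSCLC_1, 254 and 350 for GSCLC_2, and 366 and 914 for GSCLC_4. Leaving out a library gave 93 to 400 higher and 178 to 641 lower genes, both lowest without replicate 2 of GSCLC_3 and both highest without replicate 2 of GSCLC_4. Settings chosen after seeing the data gave 172 and 243 with GSCLC_4 left out of the other lines, 392 and 857 with GSCLC_1 left out, and 138 higher without chromosome 8. The cause of these shifts was not tested. The counts stayed within 1.5 times with a pseudocount of 0.5 or 5, a 20 RPM filter, or 12 libraries in the fit. A replicate block gave 287 and 568. Same-numbered replicates did not pair (correlations of their differences -0.089 to 0.106). Of 99 called named genes, 59 kept their call without replicate 1 of GSCLC_3 and 48 without replicate 2, 38 against GSCLC_1 alone, and 97, 79 and 75 with GSCLC_1, GSCLC_2 or GSCLC_4 left out of the other lines. Against GSCLC_2 alone 75 kept their call, and against GSCLC_4 alone 80. Losses against a single line are stated above for only part of these genes. Rhox5 against GSCLC_2 alone came to 0.019 and Trf against GSCLC_4 alone to 0.49, both opposite in sign to their differences from the mean of the other lines. Depth limits genes near the floor of 3 implied reads, such as Pycard and Hoxa10, whose fitted sizes follow the pseudocount.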
